A study of Mus musculus with 6 samples.

Results

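The CXC chemokine ligands described here were Cxcl2, Cxcl9, Cxcl10, Cxcl13, Cxcl14 and Cxcl16, 6 of the 31053 mouse genes in the deposited matrix. They were taken by symbol from a list chosen with earlier results of these data known. Their transcripts were counted in single CD45+ cells (leukocytes) sorted from the tumor-bearing right hemisphere of female SCID mice, a strain that lacks mature T and B cells. At 8 weeks of age each mouse received an intracranial implant of 50000 U87 cells, a human glioma line. In 3 mice the U87 cells overexpressed IL-33, and these mice were sacrificed at 3 weeks. In the other 3 mice the U87 cells carried the empty pcDNA vector, and these mice were sacrificed at 6 weeks, so that IL-33 and time after implantation cannot be told apart. The GEO labels did not tie the 6 libraries of the matrix, which are numbered by the suffix of their cell barcodes, to these mice. A table of sequencing metrics in the study lists its libraries by xenograft group, with cell numbers and median UMIs that match those of the suffixes. It is not a sample label, and groups were taken from labels alone. All libraries were therefore read as 1 pooled sample, the xenograft groups were not compared, and no p-value was computed.

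CXC chemokines are small proteins that guide leukocytes along gradients by activating G protein-coupled receptors on their surface. Cxcl2 attracts neutrophils through Cxcr2, whereas Cxcl9 and Cxcl10 are induced by interferons and attract NK cells and T cells through Cxcr3. Cxcl13 guides B cells through Cxcr5, Cxcl14 is best known from epithelia, and Cxcl16 is made as a transmembrane protein that binds Cxcr6 and can be shed by the proteases Adam10 and Adam17. Microglia, the resident macrophages of the brain, can produce several of these ligands when activated.

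All 6 members were protein-coding genes. In the GENCODE annotation of build GRCm38, Cxcl2 (chr5:90903871-90905938, plus strand), Cxcl9 (chr5:92321347-92328079, minus strand), Cxcl10 (chr5:92346638-92348889, minus strand) and Cxcl13 (chr5:95956951-95961068, plus strand) lay on chromosome 5. Cxcl14 was on chromosome 13 (chr13:56288643-56296551, minus strand) and Cxcl16 on chromosome 11 (chr11:70453983-70459984, minus strand). The 250 bases before the RefSeq start of Cxcl2 (chr5:90903649-90903898), Cxcl9 (chr5:92328080-92328329) and Cxcl10 (chr5:92348890-92349139) are shown on the strand of each gene, because these inflammatory and interferon-linked members held letters of the kappaB motif (GGGANTTNC) or of the interferon-stimulated response element (ISRE, GAAANNGAA), which are in capitals.
Cxcl2: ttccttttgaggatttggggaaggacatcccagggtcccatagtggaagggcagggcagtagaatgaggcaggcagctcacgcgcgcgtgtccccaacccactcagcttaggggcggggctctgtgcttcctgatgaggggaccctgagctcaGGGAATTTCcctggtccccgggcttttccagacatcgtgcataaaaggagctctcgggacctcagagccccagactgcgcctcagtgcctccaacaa
Cxcl9: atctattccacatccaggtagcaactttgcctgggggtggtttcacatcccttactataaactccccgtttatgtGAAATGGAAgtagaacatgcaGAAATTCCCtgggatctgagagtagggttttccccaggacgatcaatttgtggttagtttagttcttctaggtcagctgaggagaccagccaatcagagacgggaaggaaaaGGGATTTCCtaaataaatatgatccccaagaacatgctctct
Cxcl10: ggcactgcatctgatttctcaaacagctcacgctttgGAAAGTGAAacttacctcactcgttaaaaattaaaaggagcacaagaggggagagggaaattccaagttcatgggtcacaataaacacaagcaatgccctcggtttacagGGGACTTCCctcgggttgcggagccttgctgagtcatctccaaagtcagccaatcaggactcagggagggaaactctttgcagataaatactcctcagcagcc

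The Cxcl2 window held 1 kappaB match, 97 bases before the start. The Cxcl9 window held 2 kappaB matches, 154 and 42 bases before the start, and 1 ISRE match at 175 bases, and the Cxcl10 window held 1 kappaB match at 103 bases and 1 ISRE match at 213 bases. On both strands, 3.54% of 32851 RefSeq promoter windows of this length held the kappaB letters and 7.13% held the ISRE letters, and no matches overlapped within the windows shown. The motifs were chosen after the sequences were seen. A further motif searched, GAS (TTCNNNGAA), was in 7.02% of windows. The Cxcl14 window held 1 ISRE and 1 GAS match, the Cxcl13 window held none of the motifs, and a Cxcl16 window was not analysed here.

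The matrix held 105560763 unique molecular identifiers (UMIs, counted transcripts) in 40411 barcodes, with 9745192 to 24393841 UMIs per library, and the filters of the study left 38751 barcodes. The same barcode sequence occurred under more than 1 suffix for 14722 barcodes (36.4%), and 490 sequences occurred under all 6 suffixes. To compare copies, 3000 pairs of barcodes with the same sequence were drawn, 200 per 2 suffixes. In 2909 pairs (97.0%) the closest of the 200 expression profiles drawn under the other suffix was that of the same sequence. The reverse search was not run, and the origin of this sharing was not tested. Kept shared barcodes had a median of 927 UMIs against 3117 in the 24262 kept barcodes without a copy (called unshared). Results below use all kept barcodes unless unshared ones are named, and the main ratios are given again with unshared ones alone. Markers of other cell types that the sort could hold were rare, with 16 UMIs of Cd3e and 13 of Cd79a, which define T and B cells, and 1 UMI each of Cldn5 (endothelium) and Aqp4 (astrocytes).

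Cells were grouped by marker genes that included none of the ligands. Microglia-like cells numbered 37529 (23375 unshared) and were divided into 7 states named after their markers. These were 18509 Apoe-low, 13682 Apoe-high, 2447 Ccl2/Ccl12, 1083 Lpl, 334 cycling, 788 interferon and 686 MHC class II microglia. The interferon state was taken from Ifit, Isg15 and similar genes, the MHC class II state from Cd74 and H2 genes, the Lpl state from Lpl, Fabp5, Plk2, Fam20c and Mmp12, and the cycling state from Mki67, Top2a and other division genes. Ccl2/Ccl12 and Apoe-high cells had at least 1% of their UMIs in those genes, and Apoe-low cells were the rest. Shared barcodes made up 73.8% of Apoe-high and 47.6% of Lpl microglia, but 5.48% of Ccl2/Ccl12 microglia. Recruited cells were few, with 215 monocyte-like, 74 dendritic cell-like, 83 granulocyte-like and 204 NK cell-like cells. A further 19 cells passed the border macrophage-like gate, and this name stands for the gate alone. They had 331 CPM of Mrc1 and 540 of Ms4a7, against 50.8 and 134 in monocyte-like cells, but no UMI of Lyve1 or Cbr2. Their Ccr2 was 1998 CPM and their Ly6c2 294, against 1938 and 911 in monocyte-like cells. The 240 choroid plexus-like cells are given beside these groups as a type that should lack leukocyte transcripts. The choroid plexus-like cells nevertheless carried microglial RNA, with 1225 CPM of P2ry12 and 741 of Tmem119 against 3700 and 2446 in microglia-like cells, so that a share near theirs was read neither as presence nor as absence of a ligand. Levels are UMIs of the gene per 1000000 UMIs of the group (CPM), with exact Poisson 95% intervals, and shares of cells have exact Clopper-Pearson 95% intervals. All these intervals cover counting error only.

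The ligands differed in how many cells carried them. Cxcl16 was found in 8177 kept cells (21.1%) and no cell held more than 14 of its 11422 UMIs. Cxcl10 gave 6899 UMIs in 2394 cells (6.18%) and Cxcl2 11078 UMIs in 1426 cells (3.68%). Cxcl13 (1384 UMIs in 267 cells), Cxcl14 (404 in 340) and Cxcl9 (65 in 25) were detected in under 1% of cells. The 10 cells richest in Cxcl13 held 50.8% of its UMIs against 8.91% for Cxcl14 (55.4% and 23.4% among unshared barcodes). The 100 richest cells held 50.3% of Cxcl2 UMIs, 26.8% of Cxcl10 UMIs and 5.87% of Cxcl16 UMIs. Cxcl16 was thus spread thinly over many cells, whereas few cells held a large share of the Cxcl2, Cxcl9 and Cxcl13 UMIs. For Cxcl9 this rested on 1 cell with 22 UMIs, and the next richest cell held 6. In microglia-like cells, none of the 6 ligands was detected in 72.9% of cells, 1 ligand in 22.6%, and 2 in 3.91% (67.5%, 26.7% and 5.03% among unshared barcodes).

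**Figure D1:**
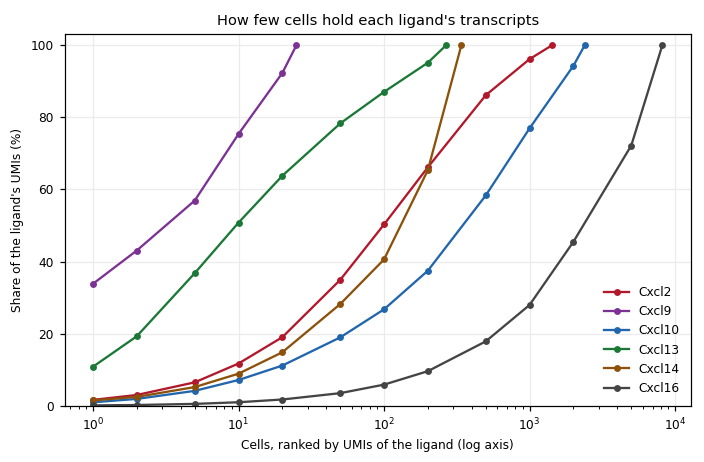
Cumulative share of each ligand's UMIs (%, y axis) against the number of kept cells ranked by their UMIs of that ligand (x axis, log scale), 1 line per ligand. The Cxcl9 and Cxcl13 lines climb first and the Cxcl16 line last, with 50.8% of Cxcl13 UMIs in 10 cells and 72.2% of Cxcl16 UMIs in 5000 cells.

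Cxcl2, the neutrophil attractant, was highest in recruited myeloid cells. Monocyte-like cells held 37.3% of all Cxcl2 UMIs, with 4197 CPM (4070 to 4327) and a UMI in 71.6% of cells. The 3 libraries with at least 20 monocyte-like cells gave 5370 CPM in library 4, 3089 in library 5 and 2118 in library 6. All of these exceeded the Cxcl2 level of all microglia-like cells, 52.9 CPM (51.4 to 54.4), which ran from 35.8 to 94.9 with a median of 48.0 over the 6 libraries. The pooled monocyte-like level was 79.4 times that of microglia-like cells (76.1 to 82.8) and 89.7 times among unshared barcodes (85.7 to 93.9). It was higher in 3 of 3 libraries. The microglia-like level pooled all 6 libraries and was itself highest in libraries 4, 5 and 6. Within each of these libraries the monocyte-like level was a smaller multiple of the microglia-like one than in the pool of all kept barcodes.

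Granulocyte-like cells, which carry the Cxcl2 receptor, had 2271 CPM of Cxcl2 (2092 to 2462), 42.9 times the microglia-like level (39.4 to 46.8) and 50.4 times among unshared barcodes. Only library 2 held 20 granulocyte-like cells, with 2929 CPM. Dendritic cell-like cells had 829 CPM, or 495 without the single cell that held 131 of their 319 UMIs, and 588 and 325 CPM in libraries 4 and 6. The 19 border macrophage-like cells had 3437 CPM (3093 to 3810), and no library held 20 of them. NK cell-like cells held 1 Cxcl2 UMI (1.55 CPM, up to 8.66), against 11.6 CPM in choroid plexus-like cells. After thinning every cell to 1000 UMIs and leaving out shallower cells, Cxcl2 was detected in 61.4% of monocyte-like, 53.1% of granulocyte-like and 0.70% of Apoe-low cells. The 387 cells that passed no gate, which may include cells of these types, also had 1742 CPM of Cxcl2.

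Of the 4 members with at least 10 CPM on either side, Cxcl2 alone was at least 2 times higher and higher in every library compared in monocyte-like cells, as were 16.4% of all genes tested. The same count was 1 of 4 in dendritic cell-like cells (20.1% of genes), 1 of 4 in granulocyte-like cells (10.3% of genes) and 0 of 4 in NK cell-like cells (11.7% of genes). Cxcl2 was thus the member called in recruited myeloid cells, among many genes that were called with it.

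Monocyte-like cells with at most 1 UMI of the core microglial markers (166 cells) had 4579 CPM of Cxcl2, against 3013 in the 49 cells with more. Granulocyte-like cells were alike, with 4137 CPM in 40 cells and 1496 in 43 cells. In both types the Cxcl2 level was higher where microglial transcripts were fewer. The share of cells with a Cxcl2 UMI was 76.5% against 55.1% in monocyte-like cells, but 57.5% against 67.4% in granulocyte-like cells. The difference in level from microglia was therefore as large in cells nearly free of microglial transcripts.

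**Figure D2:**
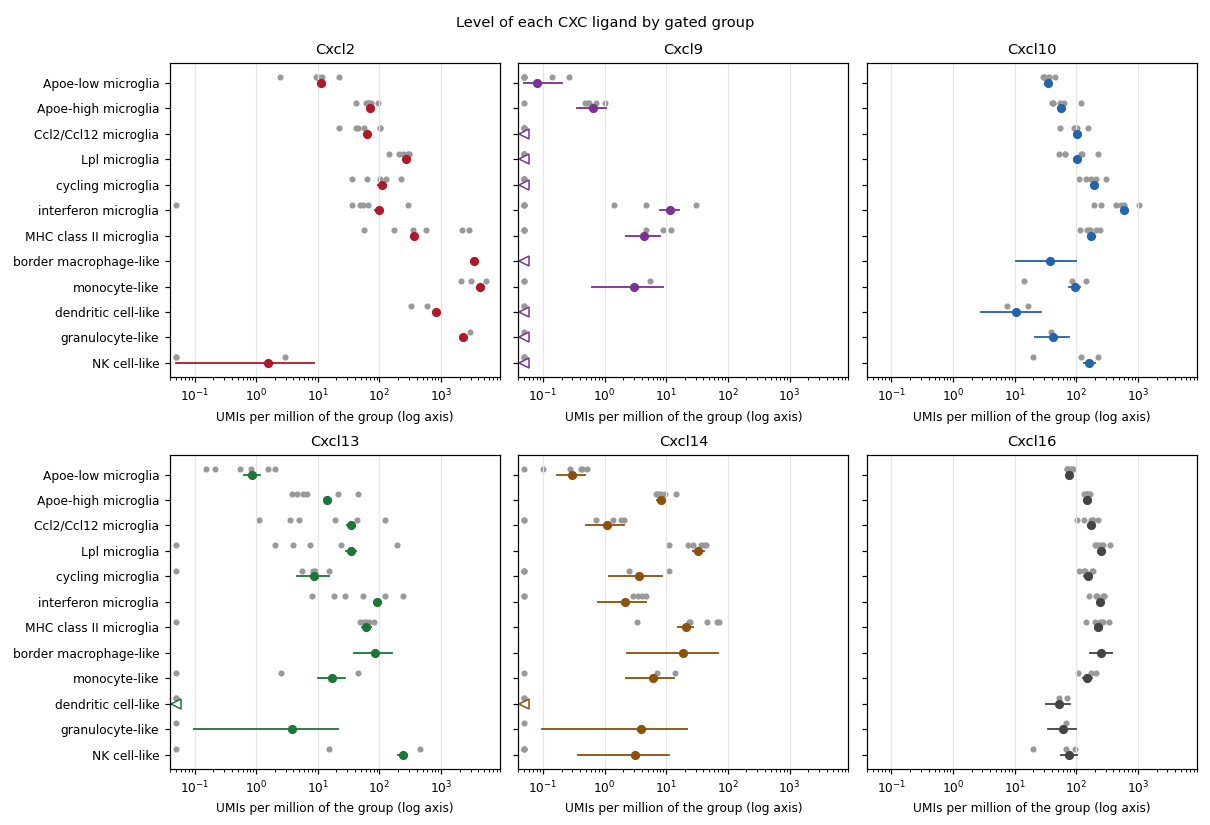
Level of each ligand (CPM, log axis) in 12 groups of cells, 1 panel per ligand. Colored points and bars give the pooled value and its Poisson 95% interval, gray points give single libraries with at least 20 cells, open triangles mark groups with 0 UMIs, and gray points at the left edge are libraries with 0 UMIs. Cxcl2 is highest in monocyte-like cells (4197 CPM), Cxcl10 in interferon microglia (600.6 CPM), and Cxcl16 spans the narrowest range.

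Among microglia, Apoe-low cells had the least Cxcl2, 11.2 CPM (10.3 to 12.1), and MHC class II microglia the most, 362 CPM (339 to 387). Lpl microglia, whose markers are those of phagocytic and lipid-handling microglia, followed with 267 CPM (250 to 286), ahead of cycling (111), interferon (96.6), Apoe-high (69.7) and Ccl2/Ccl12 microglia (62.0). A single cycling cell held 65 of the 151 UMIs of that state, and without it the level was 63.3 CPM, below the interferon and Apoe-high states. Cycling cells without monocyte or granulocyte UMIs had 64.8 CPM. The 42 cells with them had 390 CPM, but the same single cell held 65 of their 75 UMIs. The part of such UMIs in the level was not tested. The intervals of the cycling and interferon states overlapped, as did those of the Apoe-high and Ccl2/Ccl12 states. The Apoe-low level was near that of choroid plexus-like cells given above and was read neither as presence nor as absence. Against this level the ratio was 32.5 in MHC class II (29.2 to 36.1) and 24.0 in Lpl microglia (21.5 to 26.7). Among unshared barcodes the ratios were 37.3 and 19.8. Both states were higher in every library compared. The interferon state was higher in 5 of 6 libraries only, at 8.65 times (9.38 unshared).

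The MHC class II level leaned on few cells. Their libraries ran from 55.2 to 2823 CPM with a median of 454, and 1 cell with no core microglial UMI held 182 of the 910 UMIs. The 540 MHC class II cells without any UMI of the monocyte and granulocyte markers had 235 CPM of Cxcl2, whereas the 52 cells with at least 2 UMIs of monocyte markers had 1720 CPM and 395 of the UMIs. The 566 cells with at least 5 core microglial UMIs had 151 CPM (136 to 168), still above the Apoe-low level. Transcripts of recruited cells thus moved with Cxcl2 in this state, as in Lpl microglia (232 CPM without and 532 with such UMIs), and their part in the difference was not tested. In interferon microglia Cxcl2 was 103 CPM in cells without and 86.4 in cells with such UMIs, but 168 (133 to 209) in the 115 cells with at least 2 UMIs of monocyte markers.

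Cxcl9, a ligand of Cxcr3, was close to the limit of detection. Of its 65 UMIs, 32 were in interferon microglia (11.4 CPM, 7.77 to 16.0), 15 in Apoe-high, 11 in MHC class II and 4 in Apoe-low microglia, and 3 in monocyte-like cells. Among unshared barcodes the Apoe-high count was 3, and the 12 UMIs in shared barcodes all belonged to 1 barcode sequence. A single interferon cell of library 5 held 22 UMIs, and without it the level of this state was 3.56 CPM. That cell also held 25 UMIs of Cxcl10 and 14 of Cxcl16. No Cxcl9 UMI was found in Ccl2/Ccl12, Lpl or cycling microglia, nor in dendritic cell-like, granulocyte-like or NK cell-like cells. For a count of 0 the bound was 3 over the number of cells, not a Clopper-Pearson interval. This bound still allows Cxcl9 UMIs in up to 0.277% of the 1083 Lpl and 1.47% of the 204 NK cell-like cells. Cxcl9 was detected in 3 of 6 libraries of interferon microglia, with a median of 0.72 CPM.

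Cxcl10, the other Cxcr3 ligand, was highest in interferon microglia. Its level there was 600.6 CPM (572 to 630) with a UMI in 29.3% of cells (26.2 to 32.6), against 35.2 CPM (33.6 to 36.9) in Apoe-low cells. The 6 libraries ran from 191 to 1023 CPM in interferon microglia, with a median of 483, and from 29.0 to 45.7 in Apoe-low microglia, with a median of 33.2. These ranges did not overlap. The ratio of the states was 17.1 with all barcodes (15.9 to 18.2) and 17.1 with unshared ones (15.9 to 18.3). Among microglial states, the pooled levels of Cxcl9 and Cxcl13 were also highest in interferon microglia. The gate of this state used interferon-induced genes, so that a high level of an interferon-induced ligand there was partly set by the gate.

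Cxcl10 was also above the Apoe-low level in cycling (195 CPM), MHC class II (170), Ccl2/Ccl12 (103), Lpl (101) and Apoe-high microglia (56.7), and in every library compared. The 95% intervals of the cycling and MHC class II states overlapped, and so did those of the Ccl2/Ccl12 and Lpl states. In thinned cells Cxcl10 was detected in 21.7% of interferon and 13.3% of cycling microglia, 2.57% of Apoe-low microglia and 2.01% of choroid plexus-like cells (0.417% to 5.77%). The Apoe-low share lay within the interval of the choroid plexus-like cells. The Apoe-high share was 3.20% with all barcodes and 6.32% with unshared ones, and its ratio to Apoe-low cells moved from 1.61 to 2.54.

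Outside microglia, Cxcl10 depended on single cells. NK cell-like cells had 163 CPM, but 50 of their 105 UMIs were in 1 cell, and libraries 2, 4 and 6 gave 19.7, 119 and 227 CPM. Monocyte-like cells had 93.5 CPM, with 53 of 92 UMIs in 1 cell. The 115 NK cell-like cells with at most 1 core microglial UMI held 1 UMI of Cxcl10, and the 89 cells with more held 104. Their Cxcl10 thus moved with microglial transcripts. In interferon microglia Cxcl10 was 571 CPM in the 700 cells with at least 5 core microglial UMIs. It moved there with UMIs of the monocyte and granulocyte markers. The 500 cells without them had 399 CPM (369 to 430) of Cxcl10 and the 288 cells with them 916. The 115 cells with at least 2 UMIs of monocyte markers had 1301 (389, 983 and 1392 among unshared barcodes). Apoe-low cells without such UMIs had 34.0 CPM. Among the monocyte markers, interferon microglia had 124 CPM of Ms4a4c and 61.8 of Plac8, against 22.9 and 5.86 in all microglia-like cells. Their Ccr2 was 5.33 CPM against 6.91, and their Ly6c2 0.355 against 0.217. The part of these transcripts in the level was not tested.

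Cxcl13, the Cxcr5 ligand, was rare, and its pooled levels were set by a few cells. The highest level was in NK cell-like cells (238 CPM), where 150 of 153 UMIs were in 1 cell of library 6. That cell also held 50 UMIs of Cxcl10 and 4 core microglial UMIs, and without it the level was 4.72 CPM. The 115 NK cell-like cells with at most 1 core microglial UMI held no Cxcl13. Similarly, 1 cell held 81 of 109 UMIs in Lpl microglia and 1 cell held 117 of 280 in Ccl2/Ccl12 microglia.

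In interferon microglia, Cxcl13 had 92.7 CPM (81.8 to 105) in 37 cells, with 8.16 to 238 CPM and a median of 41.1 over the 6 libraries. MHC class II microglia had 61.3 CPM (52.0 to 71.8), also in 37 cells, and Apoe-low microglia 0.868 CPM (0.630 to 1.16). Interferon microglia exceeded Apoe-low cells in 6 of 6 libraries, at 107 times with all barcodes (77.4 to 151) and 112 times with unshared ones (80.8 to 160). Without its richest cell the interferon level was 54.4 CPM, which was still above that of Apoe-low cells. Ccl2/Ccl12 microglia were higher in 6 of 6 libraries at 39.1 times (39.2 unshared), whereas MHC class II microglia were higher in 5 of 6.

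Cxcl14 was highest in Lpl microglia among the microglial states, at a low level. It reached 33.3 CPM there (27.2 to 40.3), 20.7 in MHC class II (15.5 to 27.2), 8.07 in Apoe-high and 0.296 in Apoe-low microglia (0.166 to 0.488), and no cell held more than 6 UMIs. Lpl libraries ran from 10.96 to 44.3 CPM with a median of 31.8, and Apoe-low libraries from 0 to 0.522 with a median of 0.339, so that they did not overlap. Shared barcodes weighed on this ligand, as they held 61.9% of its UMIs against 17.9% of the UMIs of all genes. With unshared barcodes the Lpl level was 16.6 CPM (37 UMIs), beside 12.5 CPM (27 UMIs) in MHC class II microglia. The ratio of Lpl to Apoe-low cells moved from 113 (65.2 to 208) to 65.0 (33.1 to 137), still higher in 6 of 6 libraries. Cxcl14 was also higher where core microglial transcripts were fewest, with 142 CPM in the 116 Lpl cells with at most 1 such UMI and 20.4 in the 755 cells with at least 5.

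Cxcl16, the transmembrane ligand, varied least. It had 253 CPM in Lpl (236 to 271), 238 in interferon (221 to 257), 225 in MHC class II (207 to 244), 173 in Ccl2/Ccl12, 153 in cycling, 149 in Apoe-high and 77.4 in Apoe-low microglia (75.0 to 79.8). The intervals of the first 3 states overlapped, as did those of the cycling and Apoe-high states, and the Ccl2/Ccl12 and cycling states. Lpl libraries ran from 204 to 349 CPM with a median of 246, and Apoe-low libraries from 71.1 to 89.3 with a median of 76.8. The states did not overlap, and Lpl microglia were 3.27 times higher (3.02 to 3.53), or 3.32 times among unshared barcodes.

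Monocyte-like cells had 150 CPM of Cxcl16, with 207, 172 and 107 CPM in 3 libraries, 1.25 times the microglia-like level (1.06 to 1.47) and higher in 2 of 3 libraries. Dendritic cell-like, granulocyte-like and NK cell-like cells had 52.0, 61.3 and 76.2 CPM, all lower than the 120 CPM of microglia-like cells. In thinned cells Cxcl16 was detected in 5.73% of NK cell-like and 6.92% of Apoe-low cells, and in 6.04% of choroid plexus-like cells (2.80% to 11.2%), whose median depth was 1370.5 UMIs against 2535 and 2805. The shares in NK cell-like and Apoe-low cells were within that interval, whereas Lpl, interferon and MHC class II microglia reached 19.0%, 17.5% and 17.6%. The 115 NK cell-like cells with at most 1 core microglial UMI held 1 UMI of Cxcl16.

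Across states, counts of members read against Apoe-low cells were set beside those of all genes with at least 10 CPM on either side. These counts used all kept barcodes only. In Ccl2/Ccl12 microglia 4 of 4 members tested (Cxcl2, Cxcl10, Cxcl13 and Cxcl16) were at least 2 times higher and higher in every library, as were 1.08% of genes. In MHC class II and in Lpl microglia 4 of 5 were (Cxcl2, Cxcl10, Cxcl14 and Cxcl16 in both), beside 1.62% and 3.51% of genes. In interferon microglia 3 of 5 were (Cxcl10, Cxcl13 and Cxcl16), beside 3.2% of genes, in cycling microglia 2 of 3 (Cxcl2 and Cxcl10), beside 11.4%, and in Apoe-high microglia 2 of 4 (Cxcl2 and Cxcl13), beside 1.58%. Cxcl2, Cxcl10 and Cxcl16 passed 10 CPM in Apoe-low cells and were counted in every state. Cxcl9 (0.0789 CPM there), Cxcl13 (0.868) and Cxcl14 (0.296) did not. They were counted only in states where they reached 10 CPM themselves, so that a ratio of at least 2 was given on entry. The shares of members called, on 3 to 5 members that share cells and libraries, were therefore not weighed against those of all genes. Cxcl9 reached the level needed for this count in the interferon state alone. The pooled levels of Cxcl2, Cxcl10 and Cxcl16 were higher in all 6 states than in Apoe-low cells.

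**Figure D3:**
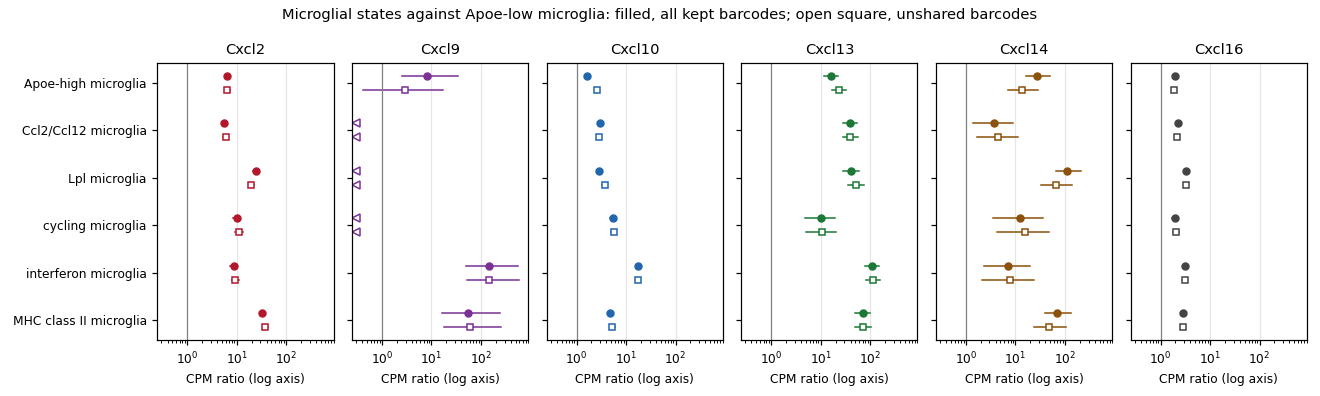
CPM ratio of each microglial state to Apoe-low microglia (log axis), 1 panel per ligand, with 95% counting intervals. Filled circles use all kept barcodes, open squares use unshared barcodes, and left-pointing triangles mark a ratio of 0. All ratios above 0 lie to the right of 1, with all barcodes from 1.61 for Cxcl10 in Apoe-high microglia to 144 for Cxcl9 in interferon microglia.

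Pairs of ligands were compared in 22615 unshared microglia-like cells thinned to 1000 UMIs of all states. Among the 350 cells with Cxcl2, 16.0% (12.3 to 20.3) also had Cxcl10, against 4.35% of cells without Cxcl2. Cxcl16 was detected in 18.9% and 9.20% of the same cells, and in 16.7% of the 1025 cells with Cxcl10 against 9.004% without. Cxcl13 was found in 1.76% of Cxcl10-positive and 0.301% of other cells. Pairs among Cxcl2, Cxcl10 and Cxcl16 were more frequent in every library that could be compared (5 of 5 for Cxcl2, 6 of 6 for Cxcl10 and Cxcl16). With all barcodes, Cxcl10 was in 10.3% of Cxcl2-positive and 3.74% of other cells. Since the states differ in several ligands at once, these shares describe the mixture of states as well as single cells.

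**Figure D4:**
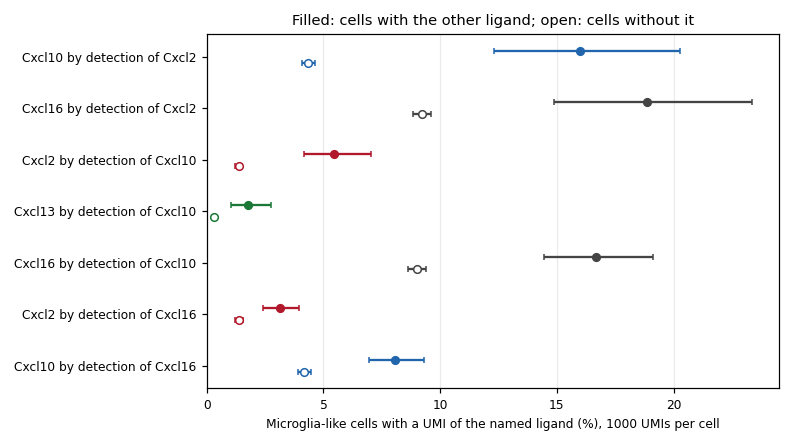
Share of unshared microglia-like cells, thinned to 1000 UMIs, with a UMI of the named ligand (%, x axis), in cells with (filled) and without (open) a UMI of the other ligand, with exact 95% intervals. Every filled point lies to the right of its open point, for example 16.0% against 4.35% for Cxcl10 by detection of Cxcl2.

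Genes of linked pathways were read in the same thinned cells from fixed lists, by the ratio of their level in cells with and without a ligand. In Cxcl10-positive cells, 8 of 8 type I interferon genes outside the gate were higher, 7 of them at least 2 times, with a median ratio of 2.79 against 0.977 over all 7348 genes, of which 0.953% were at least 2 times higher. Ifitm3, an antiviral membrane protein, was detected in 15.3% against 3.90% of cells, and Ifi204, a sensor of DNA, in 4.59% against 0.551%. The 9 interferon-gamma linked genes were all higher too (median 2.22). Iigp1, an interferon-induced GTPase, was detected in 1.37% against 0.0602% of cells, and Gbp2, another, in 2.34% against 0.523%. NF-kB and inflammatory genes were higher in 8 of 8 (median 1.72), with Tnf in 35.5% against 19.5% of cells. Phagocyte activation genes were higher in 5 of 7 (median 1.43) and immediate early genes in 1 of 8 (median 0.895). With all barcodes these were 4 of 7 (median 1.09) and 3 of 8 (median 0.951).

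In Cxcl2-positive cells, type I interferon genes were higher in 8 of 8 (median 2.38) and NF-kB and inflammatory genes in 6 of 8 (median 1.72). Phagocyte activation genes were higher in 5 of 7 (median 1.66), beside a median of 0.952 over all genes. At least 2 times higher were 4, 1 and 2 genes of these lists in the same order, beside 2.14% of all genes. The chemokine Ccl3 was detected in 68.6% against 40.9% of cells, and Il1b in 17.1% against 8.14%. Interferon-gamma linked genes were higher in 3 of 9 (median 0.826) and immediate early genes, which respond within minutes to stimulation, in 1 of 8 (median 0.777). P2ry12, a homeostatic microglial gene, was detected in 71.4% against 92.7% of cells. With all barcodes, phagocyte activation genes were higher in 7 of 7 (median 2.71), 4 of them at least 2 times. Type I interferon genes were then higher in 7 of 8 (median 2.18) and NF-kB and inflammatory genes in 6 of 8 (median 1.56).

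Cxcl16-positive cells had higher phagocyte activation genes in 7 of 7 (median 1.99), type I interferon genes in 8 of 8 (1.75) and NF-kB genes in 7 of 8 (1.37). The median over all genes was 0.989. At least 2 times higher were 3, 4 and 0 genes of these lists in the same order, beside 0.381% of all genes. The receptor tyrosine kinase Axl was detected in 8.46% against 3.87% of cells. Interferon-gamma linked genes were higher in 6 of 9 (median 1.14) and immediate early genes in 2 of 8 (0.9304). For Cxcl13 (83 cells) type I interferon genes were higher in 8 of 8 (median 2.96), 7 of them at least 2 times, beside 7.84% of all genes. For Cxcl14 (38 cells) phagocyte activation genes were higher in 5 of 7 (median 2.37), all 5 at least 2 times, beside 13.5% of all genes. NF-kB and inflammatory genes were higher in 6 of 8 for both ligands, 4 of them at least 2 times (medians 1.80 for Cxcl13 and 1.90 for Cxcl14). With all barcodes these medians were 1.42 (121 cells) and 1.01 (136 cells), and the phagocyte median for Cxcl14 was 4.09. Only 6 of the unshared cells had Cxcl9.

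Other ligands and the receptors of the family were scarce. Of the 8 other CXC ligands in the gene list, Cxcl1, which shares the receptor of Cxcl2, gave 146 UMIs and had 77.2 CPM in monocyte-like, 26.8 in granulocyte-like and 0.38 in microglia-like cells. Pf4 gave 25 UMIs, Cxcl12 23, Cxcl3 5 and Ppbp 1, and Cxcl5, Cxcl15 and Cxcl17 gave none. Cxcl11 was not analysed here. Cxcl2 and Cxcl1 were thus both highest in recruited myeloid cells among groups with at least 50 cells.

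Cxcr2, the receptor of Cxcl2, had 268 CPM in granulocyte-like cells (70 of 196 UMIs) and 0.967 CPM in microglia-like cells. Cxcr3, the receptor of Cxcl9 and Cxcl10, had 24.9 CPM in NK cell-like (16 of 86 UMIs), 18.2 in dendritic cell-like and 0.50 in microglia-like cells. Cxcr6, the receptor of Cxcl16, had 46.6 CPM in NK cell-like cells (30 of 249 UMIs) and 0.695 CPM in microglia-like cells, and 141 of its UMIs were in cells that passed no gate. Cxcr4, the receptor of Cxcl12, had 53.6 CPM in granulocyte-like and 48.8 in monocyte-like cells (219 UMIs in all), while Cxcr5, the receptor of Cxcl13, gave 14 UMIs in all. Ackr3 gave 27 UMIs, and Cxcr1 and Ackr1 gave 1 each. Cxcr2 was thus highest in granulocyte-like cells, where Cxcl2 was also high, and had no UMI in NK cell-like or dendritic cell-like cells. Cxcr3 and Cxcr6 had no UMI in granulocyte-like cells, and Cxcr6 none in dendritic cell-like cells. These zeros rest on 83 granulocyte-like, 74 dendritic cell-like and 204 NK cell-like cells and do not exclude low levels. The proteases that shed Cxcl16 were expressed in microglia-like cells at 81.3 CPM (Adam10) and 66.6 CPM (Adam17) and were no higher in Lpl microglia (73.6 and 65.3 CPM).

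Genes with patterns most like each ligand were sought over 50 sums of UMIs per group and library by Pearson's r of log2(CPM + 10). These points share libraries, depth and cell types. Cxcl2 was nearest to Lyz2 (r = 0.90), Cybb (0.85) and Fgr (0.84), genes of myeloid cells, and Cxcl16 to Axl (0.88), Tlr2 (0.82) and Apobec1 (0.76). Cxcl14 was nearest to Lyzl4 (0.81), Fth1 (0.79), which stores iron, and Spp1 (0.77), Cxcl10 to Cd72 (0.77), Tor3a (0.71) and Sdc3 (0.70), and Cxcl13 to Cd72 (0.65), Apoc1 (0.58) and H2-K1 (0.57). Cxcl9 was nearest to Gbp2b (0.58), Irgm1 (0.50), both interferon-inducible GTPases, and Zufsp (0.45). Over 48 sums of unshared barcodes the first gene was the same for Cxcl2 (0.89), Cxcl9 (0.60), Cxcl10 (0.77) and Cxcl16 (0.84) but was Apoc1 (0.67) for Cxcl13 and Fth1 (0.71) for Cxcl14.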

How the data were processed

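Droplet-based single-cell RNA-seq was performed by the authors on CD45+ cells of 6 mice. The deposited values are raw counts of UMIs per gene and barcode. The authors produced them with Cell Ranger 3.1.0, which aligns with STAR (build mm10), and aggregated the libraries without batch correction. The study analyzed the matrix in Seurat 3.1.5 and sequenced the libraries in 3 batches. The GEO labels give neither the batch nor the mouse of a library. Sequencing metrics in the study match the libraries to xenograft groups by cell number and median UMIs, but groups were taken from labels alone, so batch, mouse and xenograft group entered no comparison. Most values were computed with all kept barcodes and again without barcode sequences found in more than 1 library. The counts of genes called higher used all kept barcodes only.

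The filters of the study were applied to barcodes (more than 200 and at most 2500 genes, under 5% mitochondrial counts), and the study treated barcodes over 2500 genes as doublets. No doublet caller was used otherwise, and leaving out the top 5% of Scrublet scores was an alternative. Depth was a median of 1536 to 3503 UMIs per barcode in the 6 libraries.

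Cells were assigned by counts of detected markers (3 or more of each list, or 2 or more for microglia-like, dendritic cell-like and Lpl cells) or, for Ccl2/Ccl12 and Apoe-high microglia, by at least 1% of UMIs, in a fixed order. UMIs were summed per group and divided by the group's total (CPM). A library value was given where a group had at least 20 cells. Shares were compared after thinning each cell to 1000 UMIs, and shallower cells were left out. A gene was called higher when its CPM ratio was at least 2 and it was higher in every library compared, among genes of at least 10 CPM on either side. Patterns used log2(CPM + 10). Gene positions came from GENCODE vM21 and promoter sequences from RefSeq, both on GRCm38, and 5 of 6 members had a promoter entry.

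The genes named were the members, fixed lists of ligands, receptors, proteases and response genes (at most 4 examples each), and the 3 genes with the highest r per member among genes of at least 50 CPM in a group, gate markers left out. The members and lists were chosen with earlier results of these data known. Alternatives changed the gates, filters, depth, weighting of libraries and treatment of shared barcodes. Computations used Python 3.11.15 with numpy 2.4.6, scipy 1.17.1, pandas 2.3.3 and scanpy 1.11.5, and the procedures were tested on simulated data.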

Additional observations from a re-analysis of the deposited data

Results flagged for a closer look

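Library levels were examined in 37 sets of a ligand and a group with all kept barcodes, and in 8 sets 1 library stood far from the other 5. The rule used would flag about 1 in 20 sets of normally distributed values. That rate was not measured for sparse counts like these, and the sets share cells. The GEO labels assign no library to a xenograft group, and the cause was not tested.

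Cxcl2 reached 294 CPM in interferon microglia of library 4, where the next highest library had 64.6 CPM, and 208 CPM without its richest cell. Over all microglia-like cells, Cxcl2 was 94.9 CPM in library 4 against 56.8 in the next, and 86.3 without the richest cell. Cxcl9 was 30.8 CPM in interferon microglia of library 5 against 4.61 in the next, and 8.24 without the cell that held 22 UMIs. Over all microglia-like cells of library 5, Cxcl9 was 2.70 CPM against 0.551, and 1.00 without the same cell.

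Cxcl10 was 117 CPM in Apoe-high microglia of library 4 against 63.2 in the next library, and 112 without its richest cell. Cxcl13 was 125 CPM in Ccl2/Ccl12 microglia of library 5 against 43.8, and 43.9 without 1 cell of 117 UMIs. In Lpl microglia of library 6, Cxcl13 was 196 CPM against 24.1, and 15.8 without 1 cell of 81 UMIs. Cxcl14 was 14.4 CPM in Apoe-high microglia of library 3 against 9.43 in the next, and 13.4 without 1 cell. Single cells thus carried most of the gap for Cxcl9 and all of it, within rounding, for Cxcl13, and a smaller part of it for Cxcl2, Cxcl10 and Cxcl14.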

How the results depend on the processing

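No paired analysis was possible because no label maps barcodes to mice. The ratio of each ligand's level in its highest group of at least 50 cells to all other kept cells was recomputed under 27 alternatives. Leaving out 1 library among unshared barcodes, the richest cell or all but the deepest copy of a shared sequence, and the ratio of Cxcl13 in interferon microglia, were chosen after seeing the data. The cause of a change was not tested.

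Cxcl2 in monocyte-like cells (57.1 as reported) moved by less than the spread between libraries under 20 alternatives. It was 33.0 with 1 marker fewer per gate, 40.9 without the upper limit of genes, 39.4 with all deposited barcodes, 67.3 without cells passing several gates and 47.5 as a mean over libraries. Leaving out 1 library gave 49.2 to 85.5, the highest without library 6. Cxcl9 in interferon microglia (31.9) ranged from 3.11 without library 5 to 66.8 without library 1, and was 9.99 without its richest cell. Cxcl10 in interferon microglia (10.7) was 6.34 with 1 marker fewer and 15.0 as a mean over cells.

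Cxcl13 in NK cell-like cells (18.3) did not keep its direction. It was 5.86 with all deposited barcodes, 0.364 without 1 cell, 0 in NK cell-like cells with at most 1 core microglial UMI, and 0.830 to 33.8 when 1 library was left out (0.853 without library 6 and 33.8 without library 4). The ratio of Cxcl13 in interferon microglia (7.65) stayed between 5.13 and 11.7. Cxcl14 in Lpl microglia (10.3) was 4.15 with 1 marker fewer. Cxcl16 in Lpl microglia (2.20) was 1.56 with 1 marker fewer and 2.91 with 1 more.

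Thinning lowered the shares of cells with a UMI to 61.4% from 71.6% (Cxcl2, monocyte-like), 21.7% from 29.3% (Cxcl10, interferon), 4.52% from 8.22% (Cxcl14, Lpl) and 19.0% from 42.3% (Cxcl16, Lpl). Single libraries reached 2118 CPM at the lowest for Cxcl2, 30.8 at the highest for Cxcl9, 191 and 1023 for Cxcl10, 10.96 at the lowest for Cxcl14 and 349 at the highest for Cxcl16. The gene nearest in pattern was the same for all 6 ligands after library means were removed with all barcodes, but with unshared barcodes it changed from Apoc1 to H2-Q7 for Cxcl13 and from Fth1 to Bcl2a1d for Cxcl14. Detection of Cxcl9 (25 cells), Cxcl13 (267) and Cxcl14 (340) rests on few cells.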

Other observations

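Barcodes removed by the filters also carried the ligands. The 893 barcodes with over 2500 genes had 219 CPM of Cxcl2, 149.5 of Cxcl10, 66.6 of Cxcl13 and 155 of Cxcl16, and the 762 barcodes with at least 5% mitochondrial counts had 299, 162, 182 and 213 CPM of the same ligands and 34.5 CPM of Cxcl14. Kept barcodes had 116, 72.2, 14.5 and 120 CPM of these 4 ligands and 4.23 CPM of Cxcl14.

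Over all microglia-like cells, Cxcl2 was 35.8, 43.6, 40.3, 94.9, 56.8 and 52.4 CPM in libraries 1 to 6. Cxcl10 was 60.1, 52.3, 43.1, 126, 84.9 and 73.6 CPM in the same order. Cxcl13 was 8.49, 2.20, 2.19, 27.9, 19.1 and 21.6 CPM, and Cxcl16 was 113, 102, 90.8, 140, 137 and 139 CPM. The 3 highest values of each of these 4 ligands were in libraries 4, 5 and 6, with all kept and with unshared barcodes. Cxcl14 lay between 2.19 and 5.47 CPM with another order of libraries, and with unshared barcodes it was 0.967, 1.42, 0.376, 2.78, 2.29 and 3.02 CPM in libraries 1 to 6. Groups were taken from the GEO labels alone, which assign no library to a xenograft group or batch, and these values were not compared between groups.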
